A study of Eriobotrya japonica with 9 samples.

Results

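The phenylpropanoid genes were the 229 genes, of 43996 in the expression table of loquat (*Eriobotrya japonica*), that carry the KEGG map of phenylpropanoid biosynthesis. Within this pathway, membership follows from annotation and uses no expression value. Leaves of loquat seedlings were sequenced on day 10 in 3 groups with 3 libraries each. The controls (CK) were given water, the salt group (ST) was given water and then 200 mmol/L NaCl, and the melatonin group (MTST) had its roots irrigated with 150 µmol/L melatonin before NaCl at the same dose. No group received melatonin without salt, so ST against CK shows salt, and MTST against ST shows the earlier melatonin on a background of salt. The plants were raised from seeds collected at Mengzi through tissue culture and then planted outdoors, and no cultivar was named. The methods describe 3 biological replicates, but the labels do not tie a library to a plant or a pot, so the p-values measure the spread between these libraries.

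Phenylpropanoid metabolism starts from the amino acid phenylalanine. A lyase removes its ammonia to give cinnamate, which is hydroxylated, joined to coenzyme A and reduced step by step to the monolignols, the alcohols that peroxidases and laccases oxidize and link into lignin in the cell wall. Lignin stiffens and seals the water-conducting cells of leaf veins, and side branches of the same pathway lead to flavonoids, phenolic esters and sugar-bound phenolics.

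Library totals ranged from 13048770 to 14468499 reads, and levels are given as TPM, transcript abundances scaled to the same sum in every library, in the order of replicates 1, 2 and 3 where values are listed. A log2 fold change is a difference of log2(TPM + 1), and it understates the change of weakly expressed genes. A gene was called higher or lower when its Benjamini-Hochberg adjusted p from limma, over 23641 genes tested, was at most 0.05. Photosynthesis genes, the check of the leaf label, held 12.0% to 13.6% of TPM in CK, 6.84% to 7.64% in ST and 10.2% to 10.8% in MTST, and the part of this shift in the phenylpropanoid results was not tested. Under salt the median gene lay 0.41 higher on the log2 scale than in CK, and this shift was 0.01 after median-of-ratios scaling, which sets the typical gene equal between libraries. Both scales are therefore given for counts. Leaf RNA comes from a mixture of cell types, so fewer cells of a type and less RNA per cell cannot be told apart. The 3 comparisons share libraries with one another, and their values are given side by side without being counted as separate evidence.

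Of the 229 genes, 63 had no read in any library 71 more did not reach the filter on low values, and the other 95 reached 1 TPM in 3 or more libraries and were tested. Among these 95 genes, 66 reached 1 TPM in all 9 libraries, and 6 passed only because of their level in ST. Reads were found for 136 of the 229 genes in CK, 156 in ST and 137 in MTST. The files do not pair gene identifiers with names, so genes are called by the enzyme activity in their Gene Ontology annotation and numbered within it from the highest mean TPM down. An activity term was given to 124 genes, and 105 carried the map without one. Near-identical copies within an enzyme family may share reads, and how such reads were counted is not given in the sources used here.

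Under salt, most tested phenylpropanoid genes were upregulated. Of the 95 genes, 68 were called higher in ST than in CK, 7 were called lower and 20 were not called, where 52.8% of all genes tested were called higher and 10.6% lower. With a fold change of at least 2, 56 were higher and 4 lower (58.9% and 4.21%), against 15.6% and 3.39% of all genes. Over the 95 genes the median on the log2 scale was 1.18. With median-of-ratios scaling, 53 genes were higher and 11 lower, 40 and 5 of them by at least 2-fold, and the median was 0.79, against 22.8%, 23.4%, 8.41% and 7.22% of all genes in the same order. Among the 66 genes above 1 TPM in every library, which could not have passed the filter through ST alone, 37 (56.1%) were higher by at least 2-fold, against 12.6% of the 20014 genes of that kind.

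After melatonin, the levels under salt were lower. Between MTST and ST, 51 of the 95 genes were called lower, 7 higher and 37 were not called, where 29.8% of all genes were lower and 7.9% higher. With a fold change of at least 2, 34 were lower and 3 higher, against 7.21% and 1.14% of all genes, and the median log2 fold change was -0.59, against -0.22 for all genes. With median-of-ratios scaling, 38 were lower and 10 higher, against 13.6% and 15.1% of all genes, and by at least 2-fold 26 and 5, against 4.79% and 2.16%. Genes that passed the filter only through ST favor a lower level in MTST. Among the 66 genes above 1 TPM in every library, 19 (28.8%) were lower by at least 2-fold and 0 higher. Of the 20014 genes of that kind, 4.96% were lower and 0.934% higher by as much. In MTST against CK, 34 genes (35.8%) were called higher, 6 (6.32%) lower and 55 were not called, against 29.7% and 10.9% of all genes. The gap was wider by at least 2-fold, where 22 (23.2%) were higher and 2 (2.11%) lower, against 5.98% and 3.14% of all genes. With median-of-ratios scaling, 27 genes were higher and 9 lower in MTST than in CK (17.1% and 18.7% of all genes), and by at least 2-fold 14 and 5 (4.09% and 4.55%).

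**Figure D1:**
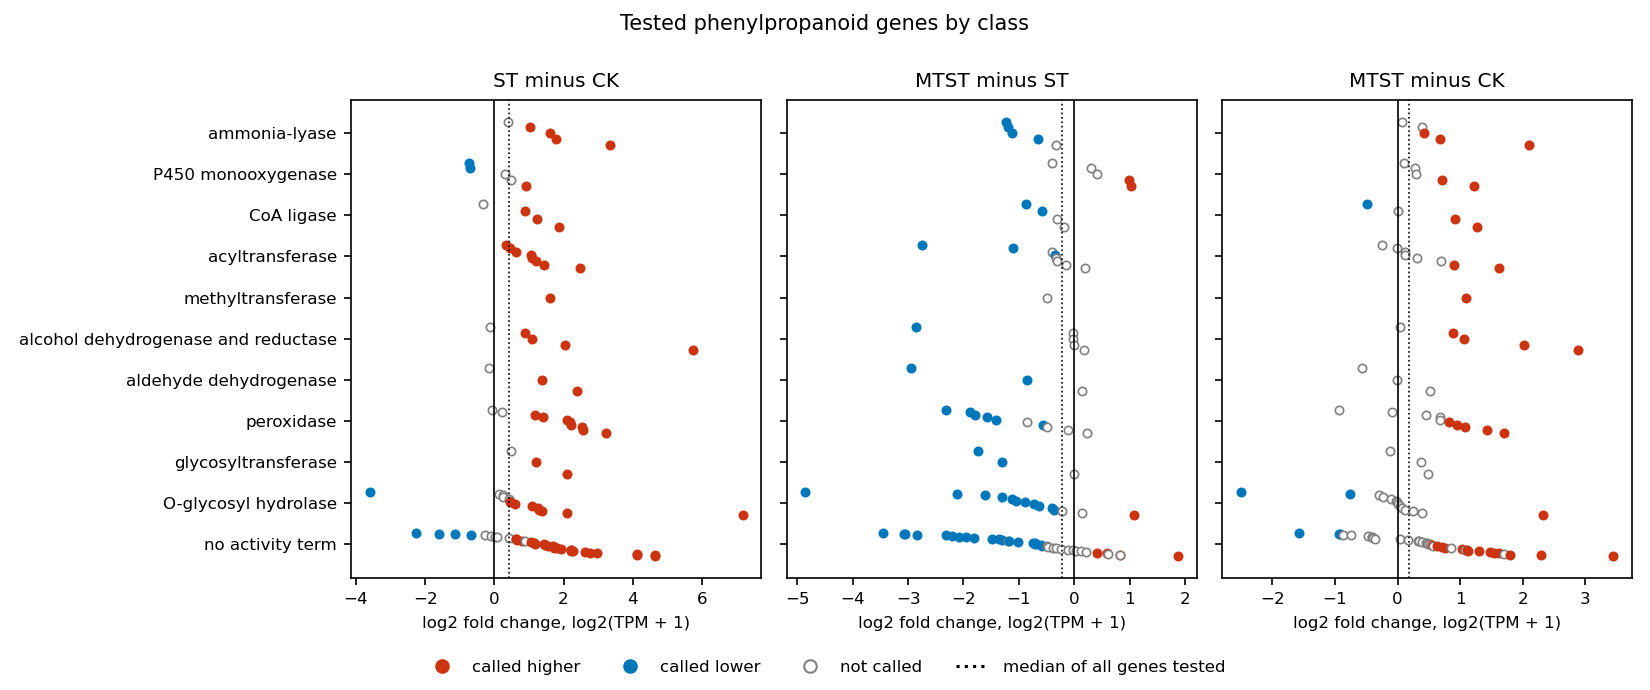
Each point is 1 of the 95 tested phenylpropanoid genes, placed by its log2 fold change on the log2(TPM + 1) scale (horizontal axis) and its enzyme class (rows), for ST minus CK, MTST minus ST and MTST minus CK. Filled points were called higher (red) or lower (blue) by limma at an adjusted p of at most 0.05, open points were not called, and the dotted line is the median of all genes tested; in ST minus CK 68 points are red and 7 are blue.

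The summed level of all 229 genes was 2652 ± 238 TPM in CK, 6389.7 ± 675 TPM in ST and 4359 ± 383 TPM in MTST (SD, n = 3). In each library this came to 0.258%, 0.246% and 0.292% of TPM in CK, to 0.707%, 0.572% and 0.638% in ST, and to 0.445%, 0.469% and 0.394% in MTST. The 3 groups did not overlap, with MTST between the others. A single peroxidase gene made up 23.3% to 38.8% of this sum, and without it the sums were 1910.1 ± 189, 4673 ± 271 and 2785.5 ± 176 TPM.

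**Figure D2:**
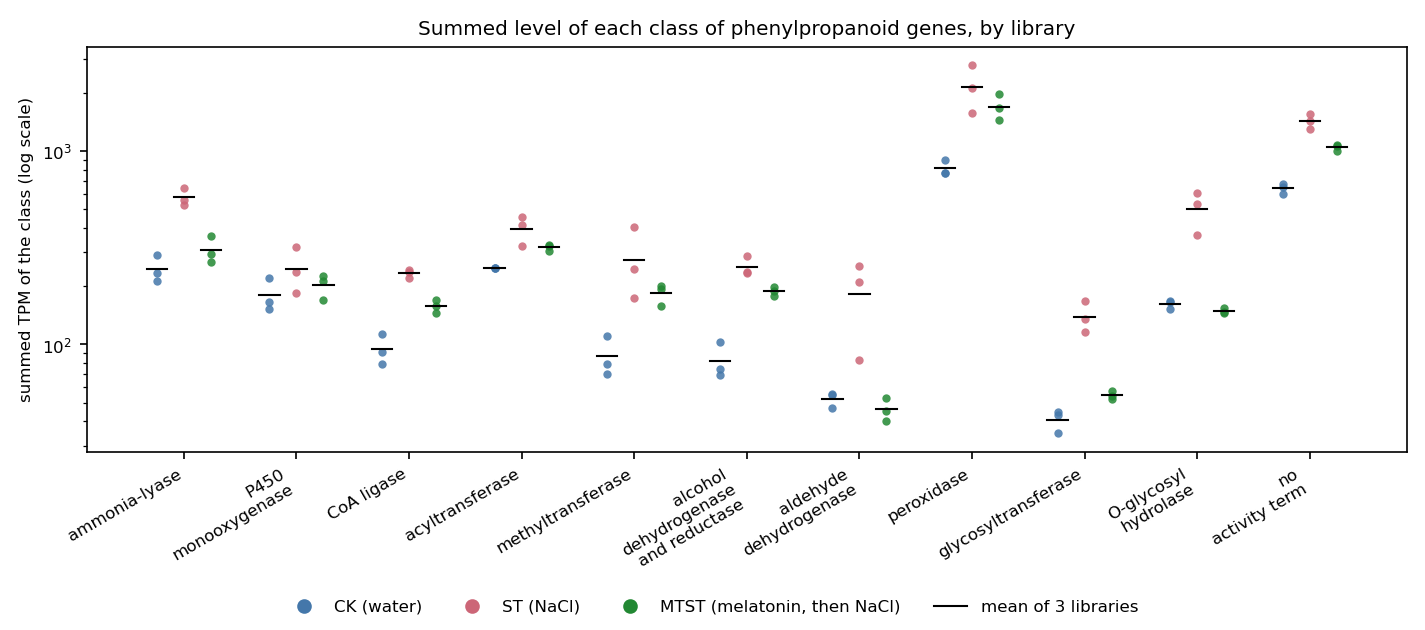
Summed TPM (log axis) of the genes of each enzyme class in each of the 9 libraries, with points for CK (blue), ST (red) and MTST (green) and a bar at the mean of 3 libraries. Peroxidases held the largest sum (815 TPM in CK, 2155 in ST and 1699.6 in MTST on average), and the aldehyde dehydrogenase and O-glycosyl hydrolase sums are close between MTST (46.1 and 149 TPM) and CK (52.4 and 162 TPM).

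The entry step was upregulated. Phenylalanine ammonia-lyase releases ammonia from phenylalanine and commits carbon to the pathway. All 5 genes with this activity were tested. Under salt 4 of them (80%, against 52.8% of all genes) rose, by 1.03 to 3.34 on the log2 scale. With median-of-ratios scaling 4 were also called higher (0.60 to 3.11), against 22.8% of all genes. The summed level of the 5 genes was 246 ± 41.0 TPM in CK, 578 ± 63.0 in ST and 308 ± 49.0 in MTST (SD, n = 3). Phenylalanine ammonia-lyase gene 1, the most abundant, stood at 103, 86.5 and 129 TPM in CK, at 351, 309 and 306 in ST, and at 165, 133 and 125 in MTST. All ST libraries were above all others, while MTST overlapped CK. It was upregulated in ST by 1.61 (SE 0.15, adjusted p = 1.3e-05) and was lower in MTST than in ST, with a log2 fold change of -1.19 (adjusted p = 0.00038). Its excess of MTST over CK, 0.42 (adjusted p = 0.046), was lost with median-of-ratios scaling (0.20, adjusted p = 0.31), without the filter on low values (adjusted p = 0.069), in a fit of the 2 groups alone (adjusted p = 0.059) and without CK replicate 1 or 2, ST replicate 2 or 3, or MTST replicate 1 or 2 (0.28 to 0.45, adjusted p up to 0.17).

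Gene 3 of this family showed the same order, with 20.5, 17.7 and 29.4 TPM in CK, 98.9, 64.7 and 76.7 in ST, and 40.8, 32.2 and 35.1 in MTST. The groups did not overlap. Its log2 fold change was 1.80 in ST against CK (SE 0.19, adjusted p = 3.5e-05), -1.12 in MTST against ST (adjusted p = 0.002) and 0.68 in MTST against CK (adjusted p = 0.018). The last call was lost with median-of-ratios scaling (adjusted p = 0.075) and without CK replicate 1 or 2 or MTST replicate 1 (0.53 to 0.63, adjusted p 0.063 to 0.068). Gene 5 was nearly silent in water, with 0.04, 0.17 and 0.08 TPM in CK from 7 reads in all, and reached 10.0, 9.63 and 10.8 TPM in ST and 3.29, 4.61 and 3.36 in MTST. It was the family member with the largest log2 fold change in ST against CK, 3.34 (SE 0.16, adjusted p = 3.6e-07, or 6.47 with limma-voom), and it remained above CK in MTST by 2.10 (adjusted p = 1.4e-05). Gene 2 was as abundant as gene 1 in water but did not pass the test, with 97.1, 97.0 and 117 TPM in CK and 164, 115 and 134 in ST (0.40, adjusted p = 0.051). It was called in a fit of the 2 groups alone (adjusted p = 0.043) and without CK replicate 3, ST replicate 2, or MTST replicate 1 or 3 (0.40 to 0.52, adjusted p 0.02 to 0.04), and its value with median-of-ratios scaling was -0.05.

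The cytochrome P450 hydroxylases, which add hydroxyl groups to the aromatic ring, gave few calls. Of 5 tested genes, 1 (20%) was higher and 2 (40%) were lower in ST than in CK, against 52.8% and 10.6% of all genes. None of the 3 reached a 2-fold change on the log2(TPM + 1) scale, which understates the change of weak genes. With median-of-ratios scaling 0 were higher and 2 lower, against 22.8% and 23.4% of all genes. Cinnamate hydroxylase turns cinnamate into coumarate, the second step of the pathway. Its gene 1 was among the most abundant phenylpropanoid genes, with 143, 137 and 192 TPM in CK, 295, 162 and 219 in ST, and 186, 178 and 139 in MTST. The 3 groups overlapped. The difference of 0.49 between ST and CK did not pass the test (95% interval 0.03 to 0.96, adjusted p = 0.061), although it did without CK replicate 3 (0.65, adjusted p = 0.027) or ST replicate 2 (0.71, adjusted p = 0.0081), and it was 0.04 with median-of-ratios scaling. Gene 2 was weak, with 2.59, 2.60 and 2.36 TPM in CK, 0.33, 2.46 and 1.07 in ST, and 3.49, 2.81 and 3.69 in MTST. It was higher in MTST than in ST by 1.02 (SE 0.29, adjusted p = 0.02), a call lost without ST replicate 3 or MTST replicate 1 or 3 (adjusted p 0.056 to 0.064). Its lower level in ST than in CK (-0.73, adjusted p = 0.049) was no longer called when any 1 library other than ST replicate 2 was left out (-0.76 to -0.39, adjusted p 0.064 to 0.16), nor without the filter on low values (adjusted p = 0.07), in a fit of the 2 groups alone (adjusted p = 0.091) or with a pseudocount of 0.1 (-1.26, adjusted p = 0.054), while limma-voom gave -1.39 (adjusted p = 0.038).

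Coumarate hydroxylase, which in *Arabidopsis* acts on coumarate esters of shikimate, had 1 tested gene. It was present at 2.81, 1.16 and 4.59 TPM in CK, 6.87, 5.47 and 5.11 in ST, and 7.42, 8.03 and 6.79 in MTST. It was higher than CK in ST by 0.92 (adjusted p = 0.017) and in MTST by 1.23 (adjusted p = 0.0068), and MTST did not differ from ST by the test (0.31, 95% interval -0.33 to 0.95). The ST difference was not called with median-of-ratios scaling (0.57, adjusted p = 0.14) or without ST replicate 1 (0.81, adjusted p = 0.052), and it was 0.55 without CK replicate 2. A P450 gene annotated to lignin synthesis without a named step (Ej00026198) went the other way, with 10.7, 8.38 and 14.8 TPM in CK, 6.81, 8.16 and 4.58 in ST, and 15.7, 13.6 and 11.6 in MTST. Its log2 fold change in ST against CK was -0.71 (adjusted p = 0.019), or -1.11 with median-of-ratios scaling (adjusted p = 0.0028), a call lost without CK replicate 3 (-0.51, adjusted p = 0.068) or ST replicate 3 (-0.51, adjusted p = 0.074), and it was higher in MTST than in ST by 0.98 (SE 0.22, adjusted p = 0.0075). Every MTST library was above every ST library for this gene.

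Coumarate-CoA ligase joins coumarate to coenzyme A, the activated form from which lignin and flavonoids branch. All 3 tested genes were called higher under salt on both scales, against 52.8% of all genes, or 22.8% with median-of-ratios scaling. Gene 1 had 29.1, 26.1 and 30.5 TPM in CK, 96.4, 112 and 110.2 in ST, and 72.8, 70.7 and 67.1 in MTST. Its groups were well apart, with log2 fold changes of 1.86 in ST against CK (SE 0.09, adjusted p = 3.7e-07), -0.59 in MTST against ST (adjusted p = 0.0011) and 1.27 in MTST against CK (adjusted p = 9.9e-06). Gene 3, at 26.5, 23.9 and 37.3 TPM in CK and 55.7, 49.9 and 55.3 in ST, was at 31.6, 30.1 and 24.9 in MTST, with 0.88 in ST against CK (adjusted p = 0.00072), -0.88 in MTST against ST (adjusted p = 0.0021) and -0.00 in MTST against CK (95% interval -0.34 to 0.34). With median-of-ratios scaling the rise of gene 3 was 0.44 (adjusted p = 0.046) and the difference of gene 1 between MTST and ST was -0.35 (adjusted p = 0.023). These ligases started from almost equal levels in CK, with means of 28.6, 28.1 and 29.3 TPM for genes 1, 2 and 3, and stood at 70.2, 52.4 and 28.9 TPM in MTST. A further CoA ligase with no named substrate was not called under salt (-0.32, adjusted p = 0.082) but was called lower with median-of-ratios scaling (-0.72, adjusted p = 0.0029), with FPKM as deposited (-0.37, adjusted p = 0.039), with limma-voom (-0.43, adjusted p = 0.046) and without CK replicate 3 (-0.45, adjusted p = 0.023).

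All 8 tested acyltransferases were called higher in ST than in CK, against 52.8% of all genes, and 3 (37.5%) with median-of-ratios scaling, against 22.8% of all genes. Hydroxycinnamoyltransferase moves the coumaroyl group onto shikimate or quinate, the esters that the next hydroxylase acts on. Its gene 2 had 10.1, 11.3 and 17.8 TPM in CK, 45.7, 29.1 and 34.4 in ST, and 46.2, 40.6 and 37.5 in MTST, so that ST and MTST overlapped and both lay above CK. It rose in ST by 1.42 (SE 0.21, adjusted p = 0.00022) and in MTST by 1.63 (adjusted p = 0.00024). Gene 3 was high in ST and low in both other groups, at 9.32, 11.4 and 11.3 TPM in ST against 1.28, 1.03 and 0.92 in CK and 0.80, 0.81 and 0.60 in MTST. The log2 fold change was 2.49 in ST against CK (SE 0.16, adjusted p = 1.5e-06), -2.75 in MTST against ST (adjusted p = 1.6e-05) and -0.26 in MTST against CK (adjusted p = 0.22). This gene reached 1 TPM in 3 libraries only through ST, so its tests and its place among the 8 genes depended on its high level there. Gene 4 was weak as well, with a rise of 1.22 (adjusted p = 0.0094) that was 2.76 with a pseudocount of 0.1 (adjusted p = 0.022). Its place among the 8 genes may have depended on ST in the same way. Gene 1, the most abundant, overlapped between groups, with 75.0, 78.5 and 72.8 TPM in CK and 78.1, 157 and 127 in ST. Its rise of 0.62 (adjusted p = 0.022) was lost with median-of-ratios scaling (0.17, adjusted p = 0.55) and without CK replicate 1 or 3 or ST replicate 2 or 3 (0.40 to 0.61, adjusted p 0.052 to 0.071). Without ST replicate 1 it was also called lower in MTST than in ST (-0.59, adjusted p = 0.0042).

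The other acyltransferases carry broader terms, and those of genes 2 and 3 (fatty-acyl-CoA synthase) and gene 4 (acylglycerol acyltransferase and lysophospholipase) are activities of lipid metabolism. Gene 1, with only the general term, was the most abundant acyltransferase, with 93.7, 92.6 and 93.0 TPM in CK, 101, 123 and 129 in ST, and 87.4, 93.1 and 95.9 in MTST. It was higher in ST by 0.33 (adjusted p = 0.012, or 0.055 without ST replicate 3 and 0.051 with FPKM as deposited) on the TPM scale but at -0.12 with median-of-ratios scaling (adjusted p = 0.36), and gene 2 went from 0.44 (adjusted p = 0.013) to -0.00 in the same way. Neither direction was therefore the same on both scales.

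Caffeoyl-CoA O-methyltransferase adds the methyl group that leads to feruloyl-CoA and coniferyl alcohol. Its single gene with this term had 79.2, 69.0 and 111 TPM in CK, 402, 173 and 247 in ST, and 193, 199 and 159 in MTST. ST and MTST overlapped, and both lay above CK. It was upregulated in ST by 1.60 (SE 0.27, adjusted p = 0.00055) and in MTST by 1.10 (adjusted p = 0.0086). The difference between MTST and ST was not called (-0.50, adjusted p = 0.17) unless ST replicate 2 was left out (-0.78, adjusted p = 0.025).

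Of 5 tested genes for the reducing steps to the monolignols, 4 (80%) rose under salt, against 52.8% of all genes. In MTST 4 (80%) were higher than in CK and 1 (20%) was lower than in ST, against 29.7% and 29.8% of all genes. With median-of-ratios scaling 3 rose under salt, 4 were higher in MTST than in CK and 1 was lower in MTST than in ST. The shares of all genes were then 22.8%, 17.1% and 13.6%. Cinnamoyl-CoA reductase makes the aldehydes. Its gene 2 had 6.75, 6.58 and 11.7 TPM in CK, 46.7, 33.2 and 30.9 in ST, and 35.5, 36.0 and 36.4 in MTST. It rose by 2.04 in ST (SE 0.20, adjusted p = 2.1e-05) and by 2.03 in MTST (adjusted p = 6.1e-05), and the difference between MTST and ST was -0.01 with a 95% interval of -0.47 to 0.44. Gene 1, with 18.2, 16.5 and 29.7 TPM in CK, 46.4, 37.3 and 35.9 in ST, and 43.6, 39.8 and 34.5 in MTST, gave 0.90 in ST (adjusted p = 0.0026, or 0.081 with median-of-ratios scaling) and 0.88 in MTST (adjusted p = 0.0052), with -0.02 between them (95% interval -0.45 to 0.42).

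Cinnamyl alcohol dehydrogenase reduces the aldehydes to alcohols. Gene 1 had 46.8, 40.8 and 57.7 TPM in CK, 104, 108 and 94.5 in ST, and 108, 101 and 96.8 in MTST. It rose by 1.07 both in ST (SE 0.12, adjusted p = 4.1e-05) and in MTST (adjusted p = 0.00011), with a difference of -0.01 between them (95% interval -0.27 to 0.26). With median-of-ratios scaling its rise in ST was 0.63 (adjusted p = 0.002), and the differences between MTST and ST of this gene and of cinnamoyl-CoA reductase genes 1 and 2 were 0.23, 0.22 and 0.22 and were not called. Gene 2 (Ej00010753) was nearly silent in water. It had 0, 1 and 11 reads in the CK libraries, or 0, 0.05 and 0.57 TPM, and reached 31.4, 105 and 72.4 TPM in ST and 7.94, 8.37 and 7.01 in MTST. The groups were far apart, with log2 fold changes of 5.74 in ST against CK (SE 0.36, adjusted p = 1.5e-06), -2.85 in MTST against ST (adjusted p = 0.0004) and 2.89 in MTST against CK (adjusted p = 0.00021). Its mean was 69.7 TPM in ST, beside 102 for gene 1, and 0.21 in CK, beside 48.4. With limma-voom on the recovered reads, where the constant added to weak levels is smaller, the log2 fold change in ST was 9.05 (adjusted p = 0.0049).

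**Figure D3:**
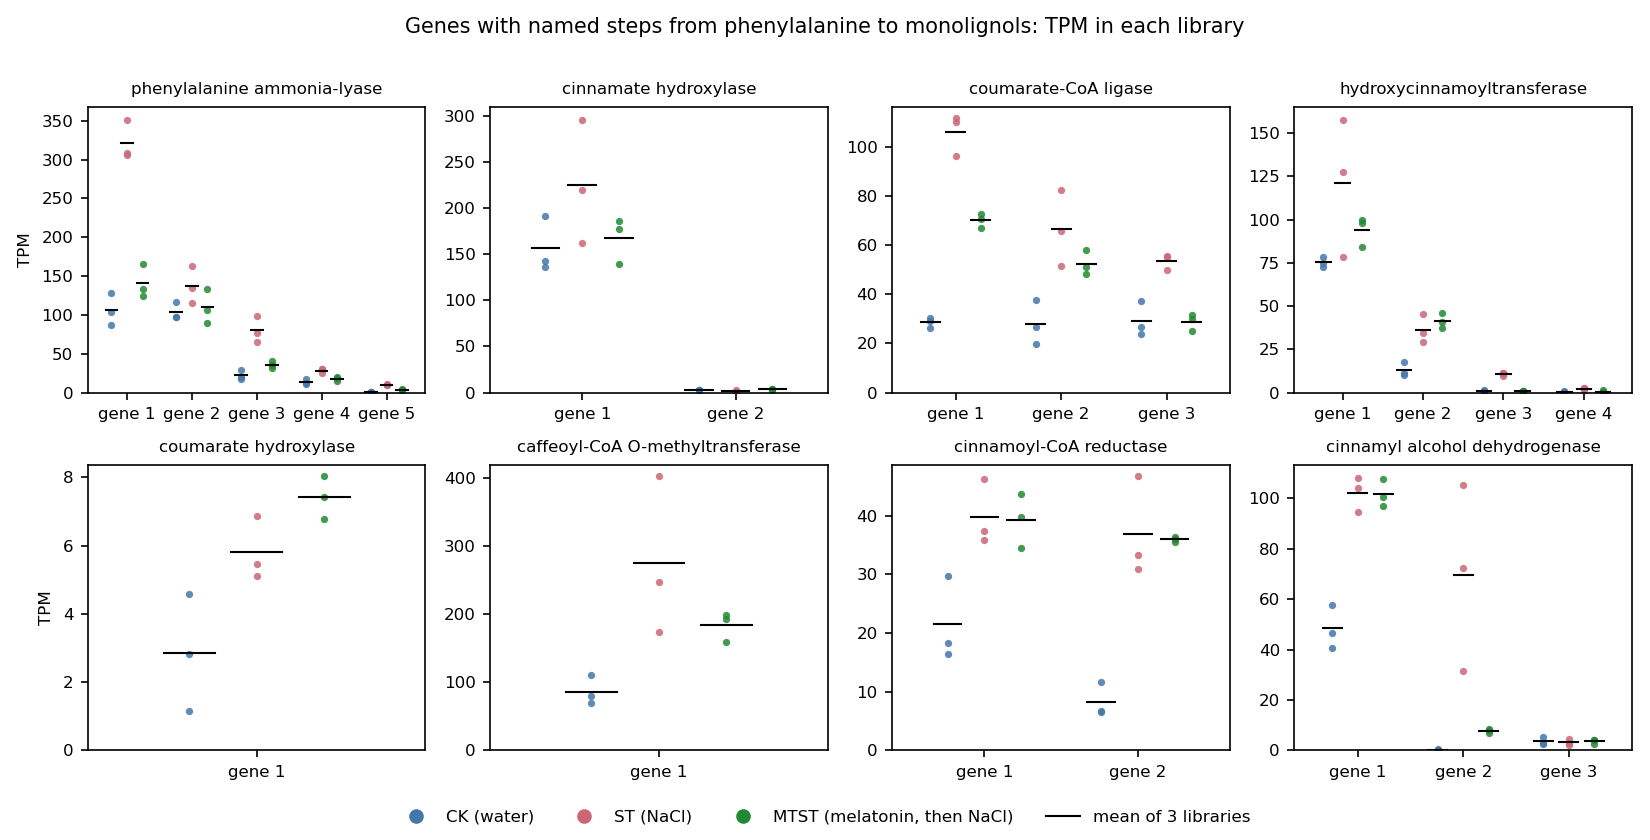
TPM (linear axes from 0, a different range in each panel) of the tested genes with named steps from phenylalanine to the monolignols, in each library of CK (blue), ST (red) and MTST (green), with a bar at the mean of 3 libraries. For cinnamoyl-CoA reductase genes 1 and 2 and cinnamyl alcohol dehydrogenase gene 1 the MTST points lie among or beside the ST points, while for phenylalanine ammonia-lyase gene 1 (mean 141 TPM in MTST, 322 in ST and 106 in CK) they lie near those of CK.

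Coniferyl aldehyde dehydrogenase diverts the aldehyde to ferulate instead of to lignin. Gene 1 had 27.8, 27.7 and 18.3 TPM in CK, 55.0, 222 and 180 in ST, and 26.1, 9.98 and 15.4 in MTST. All ST libraries were the highest, with replicate 1 far below the other two, and MTST overlapped CK. The differences were 2.38 in ST against CK (SE 0.48, adjusted p = 0.0016), -2.95 in MTST against ST (adjusted p = 0.0014) and -0.57 in MTST against CK (adjusted p = 0.37). Gene 3 was weaker and similar in direction, at 1.36 (adjusted p = 0.00037) and -0.85 (adjusted p = 0.012). Gene 2 was at 24.7, 25.4 and 27.1 TPM in CK and 19.7, 26.9 and 23.1 in ST, with -0.15 (adjusted p = 0.26) on the TPM scale and -0.58 (adjusted p = 0.0028) with median-of-ratios scaling.

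Peroxidases oxidize monolignols in the wall and have other roles in the use of hydrogen peroxide. They were the largest enzyme class, with 38 genes, but only 10 passed the filter. Of these 10, 8 (80%) were upregulated in ST, all by at least 2-fold, against 52.8% and 15.6% of all genes. None was called lower, against 10.6% of all genes. With median-of-ratios scaling 8 were higher, 7 of them by at least 2-fold, against 22.8% and 8.41% of all genes, and none was lower. In MTST against ST 6 (60%) were lower, or 5 with median-of-ratios scaling, against 29.8% and 13.6% of all genes. In MTST against CK 5 (50%) were higher on both scales, against 29.7% and 17.1% of all genes. Peroxidase gene 1 was the most abundant phenylpropanoid gene, with 702, 719 and 805 TPM in CK, 2145, 1334 and 1671 in ST, and 1546, 1819 and 1355 in MTST. ST and MTST overlapped, and each of their libraries was above all of CK. It rose in ST by 1.18 (SE 0.17, adjusted p = 0.00023, or 0.73 with median-of-ratios scaling, adjusted p = 0.0071) and in MTST by 1.07 (adjusted p = 0.0009), with a difference of -0.11 between them (95% interval -0.49 to 0.27) that was 0.13 with median-of-ratios scaling.

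Other peroxidases were lower after melatonin. Gene 2 had 51.5, 35.9 and 76.4 TPM in CK, 509, 167 and 356 in ST, and 77.1, 134 and 56.7 in MTST. Its ST libraries were far apart, and each was above all libraries of CK and MTST. Its log2 fold change was 2.56 in ST against CK (SE 0.42, adjusted p = 0.0005), -1.89 in MTST against ST (adjusted p = 0.0069) and 0.67 in MTST against CK (adjusted p = 0.23). Gene 5 went from 0.30, 0 and 1.42 TPM in CK (12 reads in all) to 14.0, 13.4 and 10.8 in ST and 3.31, 3.19 and 2.38 in MTST. It had the largest called rise of the peroxidases with a mean of at least 5 TPM, 3.22 (SE 0.29, adjusted p = 1.1e-05), and its log2 fold change in MTST against ST was -1.80 (adjusted p = 0.0013, or 0.053 with a pseudocount of 0.1). Gene 3 had 6.95, 5.47 and 5.96 TPM in CK, 60.5, 26.5 and 39.0 in ST, and 15.6, 12.7 and 10.3 in MTST. Its groups did not overlap, and it gave 2.52 in ST against CK (SE 0.25, adjusted p = 2.3e-05), -1.57 in MTST against ST (adjusted p = 0.0014) and 0.95 in MTST against CK (adjusted p = 0.013, or 0.054 without MTST replicate 1). Gene 4 was more like gene 1, since it rose in ST by 2.19 (adjusted p = 0.00062) and in MTST by 1.71 (adjusted p = 0.005) and was not called between them (-0.48, 95% interval -1.32 to 0.35). Gene 9, a weak gene, had 2 reads in CK, 49 in ST and 1 in MTST. It passed the filter on low values only through ST, so its place among the tested peroxidases depended on its high level there. The ratio of its ST to its CK level was 26.45, with a 95% counting interval of 6.94 to 225 that leaves out the spread between libraries.

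Of the glucosyltransferases, 2 of 3 tested genes (66.7%) rose in ST, and 2 were lower in MTST than in ST, against 52.8% and 29.8% of all genes. Both counts were the same with median-of-ratios scaling, against 22.8% and 13.6% of all genes. Glucosyltransferases attach glucose to phenolics, and the genes with this term are annotated to quercetin, a flavonol. Glucosyltransferase gene 1 had 26.8, 27.1 and 19.8 TPM in CK, 75.5, 120.5 and 139 in ST, and 32.3, 29.9 and 33.3 in MTST. The ST libraries were the highest, and MTST lay just above CK. Glucosyltransferase gene 1 changed by 2.11 in ST against CK (SE 0.20, adjusted p = 1.6e-05), -1.73 in MTST against ST (adjusted p = 0.00027) and 0.37 in MTST against CK (adjusted p = 0.16, or 0.033 without ST replicate 1 and 0.043 in a fit of the 2 groups alone). Gene 2 was not called under salt (0.49, adjusted p = 0.17), but it was without ST replicate 2 (0.91, adjusted p = 0.0011).

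Beta-glucosidases remove glucose from stored phenolics and many other glucosides, and the map places them where monolignol glucosides are opened. Of 29 genes with this term, 14 were tested. In ST against CK 8 were higher, 1 was lower and 5 were not called, with a median of 0.54. After median-of-ratios scaling these were 6, 1 and 7 with a median of 0.21, where 22.8% of all genes were higher and 23.4% lower. The shares higher and lower, 57.1% and 7.14%, were near those of all genes (52.8% and 10.6%), while 6 genes (42.9%) were higher by at least 2-fold, against 15.6% of all genes. In MTST against ST 11 were lower (78.6%, against 29.8% of all genes) and 1 was higher (7.14%, against 7.9%). In MTST against CK 1 (7.14%) was higher and 2 (14.3%) were lower, against 29.7% and 10.9% of all genes, with a median of 0.00. Their summed level was 166, 152 and 168 TPM in CK, 366, 611 and 532 in ST, and 155, 146 and 145 in MTST. MTST and CK overlapped, and ST was apart from both.

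Beta-glucosidase gene 1 (Ej00022228) supplied 235 of the mean of 503 TPM in ST. It had 1, 0 and 0 reads in the CK libraries, 390, 5502 and 3911 in ST, and 85, 20 and 124 in MTST, or 28.4, 403 and 274 TPM in ST and 5.55, 1.31 and 7.87 TPM in MTST. ST replicate 1 was far below the other two ST libraries but above all of MTST. The ratio of ST to CK was 10585, with a 95% counting interval of 1899 to 418124 that rests on a single CK read, and the fitted log2 fold change was 7.18 (SE 0.83, adjusted p = 5.5e-05). With limma-voom the value was 11.5 and was not called (adjusted p = 0.15). Its log2 fold change in MTST against ST was -4.86 (adjusted p = 0.0019), and its excess over CK in MTST (2.33, adjusted p = 0.046) was lost with median-of-ratios scaling (adjusted p = 0.055), FPKM as deposited (1.98, adjusted p = 0.078), no filter on low values (adjusted p = 0.078) and limma-voom (6.38, adjusted p = 0.47), and when any 1 CK library, ST replicate 3, or MTST replicate 1 or 3 was left out (1.93 to 2.36, adjusted p 0.052 to 0.15).

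Beta-glucosidase gene 9 (Ej00066388) went the other way and showed the largest called fall under salt among phenylpropanoid genes. It had 16.2, 16.4 and 15.4 TPM in CK, 0.07, 0.82 and 0.43 in ST from 18 reads in all, and 2.65, 1.67 and 1.74 in MTST. The groups did not overlap. Its log2 fold change in ST against CK was -3.60 (SE 0.21, adjusted p = 9.7e-07, or -5.59 with limma-voom), it was higher in MTST than in ST by 1.09 (adjusted p = 0.0033), and its value in MTST against CK was -2.51 (adjusted p = 2.2e-05). Gene 4 was higher in salt alone, with 11.1, 7.42 and 14.5 TPM in CK, 87.0, 23.8 and 57.4 in ST, and 11.4, 13.5 and 7.79 in MTST. Its values were 2.11 in ST against CK (adjusted p = 0.0012), -2.11 in MTST against ST (adjusted p = 0.0032) and -0.00 in MTST against CK (95% interval -0.90 to 0.89). Gene 3 moved less but with little spread, at 27.9, 26.5 and 24.4 TPM in CK, 40.7, 40.5 and 40.4 in ST, and 24.0, 28.4 and 25.3 in MTST. Its rise of 0.61 (adjusted p = 0.00025) fell to 0.17 with median-of-ratios scaling (adjusted p = 0.16). Genes 6, 8, 10 and 11, at 2.67 to 8.56 TPM in CK and 8.57 to 19.7 TPM in ST on average, also rose in ST, by 1.09 to 1.37 (gene 6 by 0.67 with median-of-ratios scaling), and all 4 were lower in MTST than in ST (-1.61 to -1.05). Their MTST levels overlapped those of CK, with differences of -0.23 to 0.13 that were not called. Gene 7 was not called under salt but was lower in MTST than in CK, with 10.6, 9.36 and 12.2 TPM in CK, 15.2, 9.90 and 10.7 in ST, and 6.56, 5.86 and 5.31 in MTST (-0.76 against CK, adjusted p = 0.0049).

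**Figure D4:**
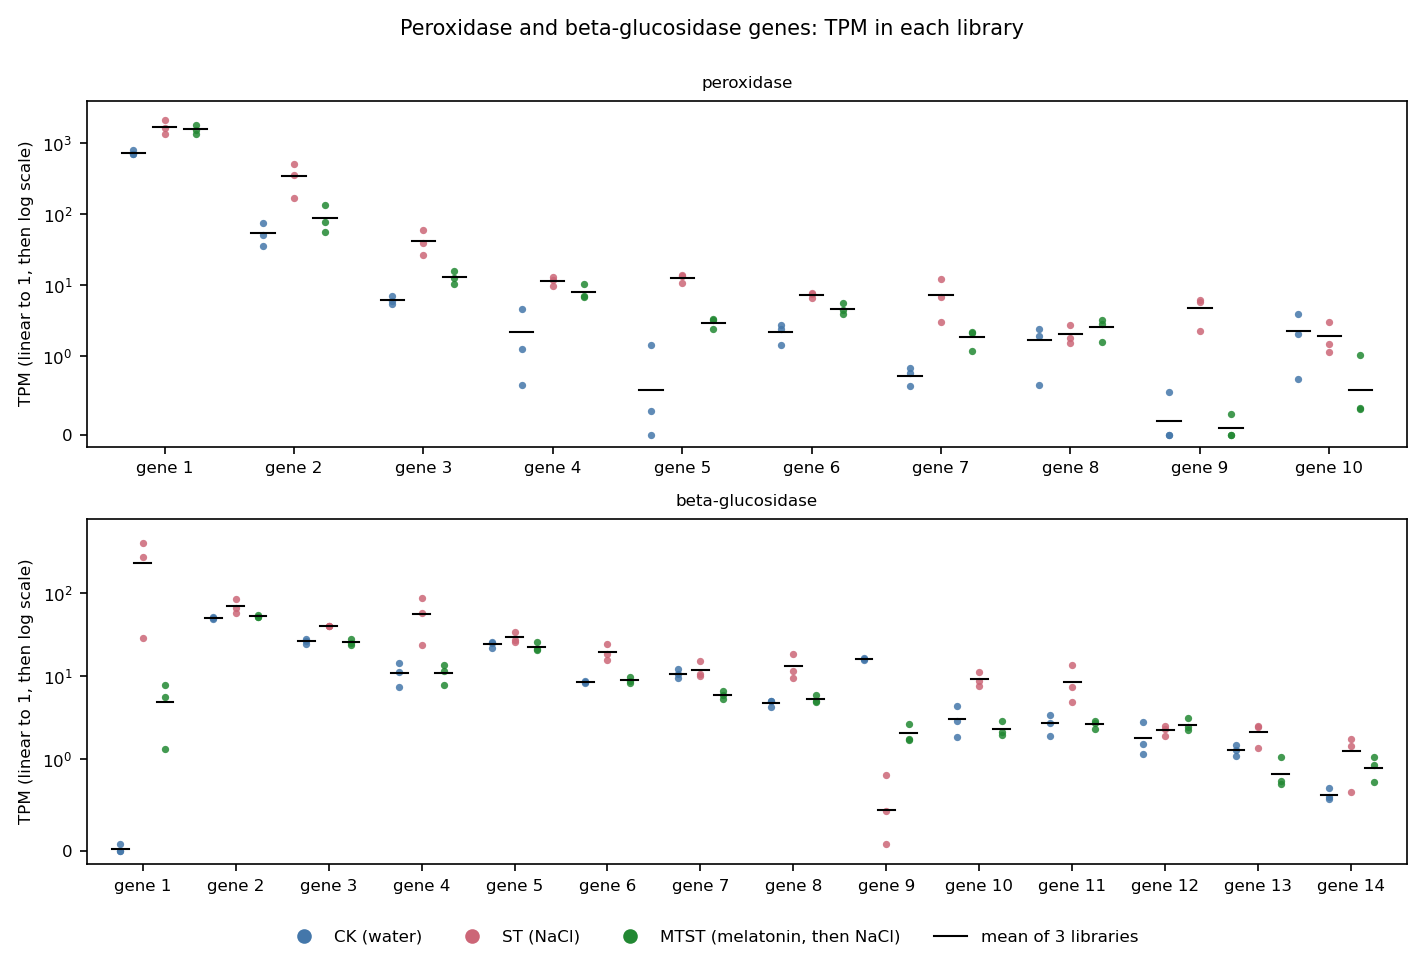
TPM of the 10 tested peroxidase genes (top) and the 14 tested beta-glucosidase genes (bottom) in each library of CK (blue), ST (red) and MTST (green), on an axis that is linear up to 1 TPM and logarithmic above, with a bar at the mean of 3 libraries. Beta-glucosidase gene 1 (235 TPM in ST, 0.02 in CK) and gene 9 (0.44 TPM in ST, 16.0 in CK, on average) stand out in opposite directions.

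Of the 105 genes without an activity term 37 were tested. In ST against CK 27 (73%) were higher and 4 (10.8%) lower, against 52.8% and 10.6% of all genes. With median-of-ratios scaling 21 were higher and 6 lower, against 22.8% and 23.4% of all genes. They can be divided by the other KEGG maps they carry. Of these 37 genes, 21 carry no other map. In ST against CK 15 of them (71.4%) were higher and 3 (14.3%) lower, or 12 and 4 with median-of-ratios scaling. In MTST against ST 11 (52.4%) were lower and 1 (4.76%) higher, against 29.8% and 7.9% of all genes. With median-of-ratios scaling 6 were lower and 2 higher in MTST than in ST, against 13.6% and 15.1% of all genes. Their log2 fold changes ran from -1.60 to 4.65 in ST against CK and from -3.46 to 0.82 in MTST against ST. Among 8 genes that share the flavonoid and stilbenoid maps, gene 1 was highest in MTST, with 185, 180.1 and 179 TPM in CK, 313, 258 and 272 in ST, and 376, 395 and 348 in MTST. The groups did not overlap. It was higher in ST than in CK by 0.63 (SE 0.09, adjusted p = 0.00021, or 0.14 with median-of-ratios scaling), and higher in MTST than in ST by 0.41 (adjusted p = 0.0061), where median-of-ratios scaling gave 0.65 (adjusted p = 0.00082). Gene 2 of this set had 2.68, 2.62 and 4.36 TPM in CK, 95.6, 49.3 and 75.5 in ST, and 22.7, 17.7 and 18.1 in MTST. It rose in ST by 4.12 (SE 0.23, adjusted p = 8.4e-07), and its log2 fold changes were -1.82 in MTST against ST (adjusted p = 0.00044) and 2.30 in MTST against CK (adjusted p = 6.5e-05). Gene 6, a weak gene chosen for mention after its values were seen, had 9.21, 6.76 and 3.47 TPM in CK, 0.62, 0.62 and 0.20 in ST, and 4.07, 3.54 and 5.76 in MTST, and it was the one gene of the set called lower in ST.

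The 5 tested genes that share the tryptophan map included a pair, genes 2 and 3, whose levels were highest in ST and lowest in MTST. Gene 3 had 18.4, 16.7 and 10.7 TPM in CK, 41.2, 98.7 and 92.5 in ST, and 9.74, 8.54 and 5.45 in MTST. It rose in ST by 2.20 (SE 0.33, adjusted p = 0.00026) and its log2 fold change in MTST against ST was -3.07 (adjusted p = 0.00018). Its value in MTST against CK was -0.87 (adjusted p = 0.056), and it was called with median-of-ratios scaling (-1.07, adjusted p = 0.034), in a fit of the 2 groups alone (adjusted p = 0.019) and without CK replicate 3 or ST replicate 1 or 2 (-1.09 to -0.87, adjusted p 0.01 to 0.045). Gene 2 gave 1.45 (adjusted p = 0.003), -2.20 (adjusted p = 0.00088) and -0.75 (adjusted p = 0.09, or 0.0038 without ST replicate 1 and 0.0074 in a fit of the 2 groups alone) in the same order. Gene 1, the most abundant, had 121, 102 and 176 TPM in CK, 138, 125 and 102 in ST, and 206, 182 and 162 in MTST. It was not called under salt (-0.10, adjusted p = 0.64), but it was called lower with median-of-ratios scaling (-0.55, adjusted p = 0.037). It was higher in MTST than in ST by 0.59 (adjusted p = 0.031), a call lost without ST replicate 3, MTST replicate 1 or MTST replicate 2 (0.47 to 0.59, adjusted p 0.079 to 0.11).

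All 3 tested genes that share the starch and cyanoamino acid maps, which all of the beta-glucosidases also carry, rose in ST and were lower in MTST than in ST. The shares of all genes were 52.8% and 29.8%. These calls were the same with median-of-ratios scaling, against 22.8% and 13.6% of all genes. Gene 1 had 12.1, 10.6 and 13.8 TPM in CK, 83.6, 78.0 and 76.9 in ST, and 31.6, 30.1 and 32.6 in MTST. The groups were far apart, with log2 fold changes of 2.62 in ST against CK (SE 0.10, adjusted p = 1.5e-07), -1.31 in MTST against ST (adjusted p = 3.6e-05) and 1.31 in MTST against CK (adjusted p = 1.5e-05). Gene 2 went from 1.18, 0.06 and 2.66 TPM in CK to 80.8, 28.2 and 53.7 in ST and 6.89, 6.87 and 4.72 in MTST. It rose in ST by 4.64 (SE 0.44, adjusted p = 1.7e-05), and its log2 fold change in MTST against ST was -2.84 (adjusted p = 0.0012).

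**Figure D5:**
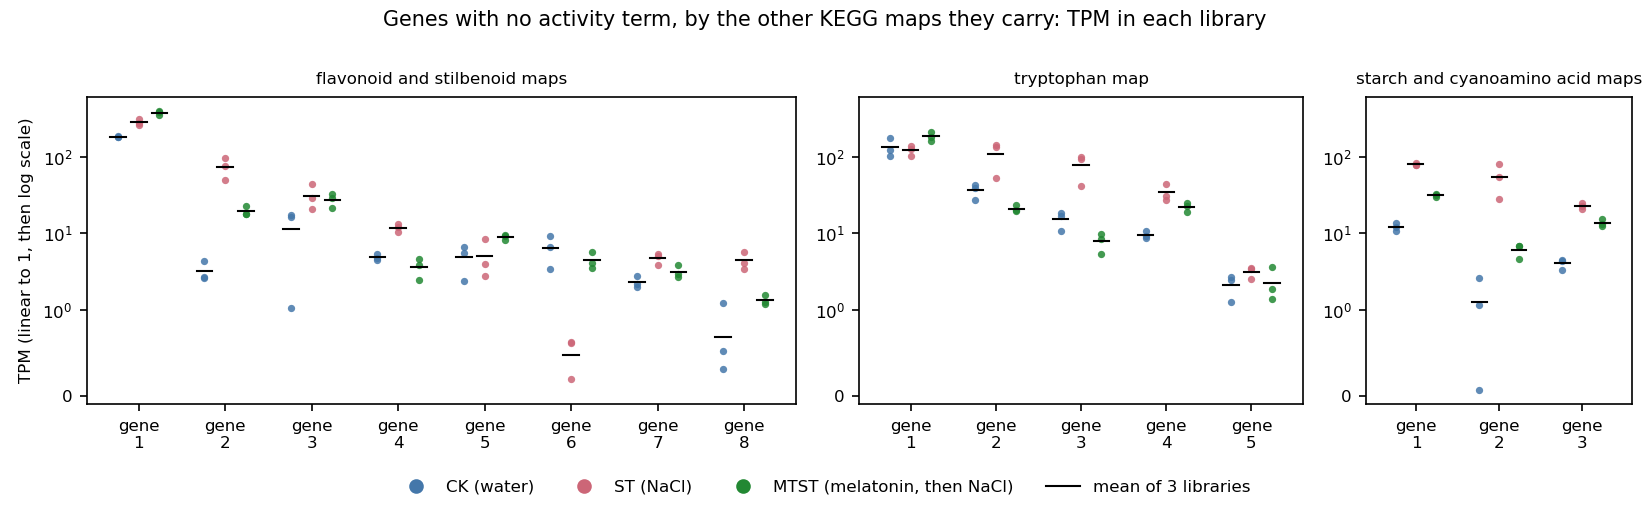
TPM of the tested genes without an activity term that share the flavonoid and stilbenoid maps (8 genes), the tryptophan map (5 genes) or the starch and cyanoamino acid maps (3 genes), in each library of CK (blue), ST (red) and MTST (green), on an axis that is linear up to 1 TPM and logarithmic above, with a bar at the mean of 3 libraries. In the flavonoid and stilbenoid panel the MTST points of gene 1 (mean 373 TPM) are above those of ST (281) and CK (181), while those of gene 2 (19.5) lie between ST (73.5) and CK (3.22).

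Some genes are annotated to lignin as a process. Of 24 phenylpropanoid genes with such a term 15 were tested, of which 9 were higher and 3 lower in ST than in CK (60% and 20%, against 52.8% and 10.6% of all genes, and 6 and 3 genes with median-of-ratios scaling). In MTST against ST 2 were higher and 2 lower (13.3% each, against 7.9% and 29.8%), and in MTST against CK 9 were higher and 1 lower (60% and 6.67%, against 29.7% and 10.9%). Their median log2 fold changes were 0.90, -0.01 and 0.88 in these comparisons, beside 1.18, -0.59 and 0.42 for all 95 genes, and the lignin values were 0.46, 0.23 and 0.68 with median-of-ratios scaling. Of 18 tested lignin genes outside the map, 10 (55.6%) were higher and none lower in ST than in CK, near the 52.8% of all genes called higher. With median-of-ratios scaling 7 were higher and 3 lower, against 22.8% and 23.4% of all genes. In MTST against ST 8 (44.4%) were lower and 1 higher (median -0.46), against 29.8% and 7.9% of all genes. In MTST against CK 4 (22.2%) were higher and 2 (11.1%) lower, against 29.7% and 10.9% of all genes. The differences between these lists were not tested. Of the 17 tested genes with a cell wall term, which include peroxidases, 11 were higher and 1 lower in ST than in CK. These were 64.7% and 5.88%, against 52.8% and 10.6% of all genes. In MTST against ST 8 were lower and 1 higher (47.1% and 5.88%), against 29.8% and 7.9% of all genes. With median-of-ratios scaling 11 were higher and 2 lower in ST than in CK, and 7 lower and 1 higher in MTST than in ST.

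Genes outside the map that lead into or out of the pathway were counted in the same way. Of 58 tested genes of aromatic amino acid biosynthesis, which supplies phenylalanine, 37 (63.8%) were higher and 4 lower in ST than in CK, against 52.8% and 10.6% of all genes. With median-of-ratios scaling 24 (41.4%) were higher and 11 lower, against 22.8% and 23.4%, and on the TPM scale 29 (50%) were lower and 2 higher in MTST than in ST, against 29.8% and 7.9%. Of 24 tested genes of phenylalanine metabolism, 21 (87.5%) were higher and 2 lower in ST (15 and 2 with median-of-ratios scaling), and 15 (62.5%) were lower and 2 higher in MTST than in ST. Of 34 tested genes of terpenoid-quinone biosynthesis, 14 (41.2%) were higher and 10 (29.4%) lower in ST than in CK (9 and 14 with median-of-ratios scaling). In MTST against ST 8 (23.5%) of them were lower and 4 (11.8%) higher (5 and 9 with median-of-ratios scaling). The flavonoid map receives coumaroyl-CoA. Of its 16 tested genes outside the phenylpropanoid map, 4 (25%) were higher and 1 lower in ST than in CK (2 and 5 with median-of-ratios scaling), and 11 (68.8%) were lower and none higher in MTST than in ST (4 and none). The differences between these lists and all genes were not tested. Only 3 genes had the term of laccase, the other enzyme that links monolignols, and both tested ones were higher in ST, by 0.68 and 1.07 (1 of them with median-of-ratios scaling).

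The salt libraries varied among themselves. Among the 56 genes higher by at least 2-fold in ST, 20 (35.7%) differed by at least 2-fold between their highest and lowest ST library, as did 27.1% of all genes higher by that much. Replicate 1 was the highest in 14 of these 20 genes, replicate 2 in 5 and replicate 3 in 1. Among all genes with such a spread, 1001 in number, replicates 1, 2 and 3 were the highest in 574, 335 and 92, in the same order of replicates. Peroxidase gene 2, beta-glucosidase gene 4 and caffeoyl-CoA O-methyltransferase were highest in ST replicate 1, and beta-glucosidase gene 1, cinnamyl alcohol dehydrogenase gene 2 and coniferyl aldehyde dehydrogenase gene 1 were highest in ST replicate 2. No batch or harvest time was given for the libraries, and the part of such differences in the results was not tested.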

How the data were processed

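Leaf samples were sent to a company for transcriptome sequencing, and the labels give total RNA of leaf, although another label field reads nucleus. The authors removed adapters (Trim-Galore, Trimmomatic), mapped to the JFZ loquat genome (HISAT2), and deposited a table of FPKM (fragments scaled by gene length and library size), computed from Rsubread counts. No source used here gives tool versions, strandedness or how reads shared by several genes were counted. The deposited table also holds the authors' group averages, log2 fold changes and p-values, which were not used. Low FPKM values rise in steps of 1 read, so gene lengths and whole reads could be recovered for 31458 of 31458 genes above 0 (tolerance 1e-05 reads), and these reads summed to 99.979% to 99.984% of the library total that the steps imply.

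FPKM was rescaled to TPM. The test was limma 3.58.1 (R 4.3.3, trended empirical Bayes) on log2(TPM + 1), in 1 fit of all 9 libraries with group as the only term, over the 23641 genes that reached 1 TPM in 3 or more libraries. Files were handled with Python 3.11.15, pandas 2.3.3 and matplotlib 3.10.9. Replicates of a group differed beyond sampling noise (mean chi-square per gene 3.11 to 27.2).

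Members were found by KEGG map and divided into classes by Gene Ontology term names. In each class the text describes the most abundant gene and those with the largest called rise and fall in ST minus CK and MTST minus ST (mean TPM of at least 5, no overlap), and further genes of the same families chosen after their values were seen. Identifiers are printed for at most 2 genes that rose and 2 that fell. The pathway, and with it the members, and the lists and tests were chosen with earlier results of these data known. Alternatives were a pseudocount of 0.1, no filter, a mean TPM of at least 5, FPKM as deposited, median-of-ratios scaling, a fit of the groups compared only, the replicate number as a block, limma-voom on recovered reads, classes from KEGG maps, and leaving out each library. Procedures were tested on simulated data. Counting intervals are exact and cover counting error only.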

Additional observations from a re-analysis of the deposited data

How the results depend on the processing

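Over all 95 genes, the counts higher in ST than in CK and lower in MTST than in ST stayed within 1.5 times in every alternative run, except that 22 genes (of 34) were lower by at least 2-fold in MTST than in ST with a mean TPM of at least 5, which left 65 genes to test. That filter also gave 3 genes lower in ST than in CK (of 7), 2 lower by at least 2-fold (of 4) and 1 higher by at least 2-fold in MTST than in ST (of 3). Median-of-ratios scaling gave 11 genes lower in ST than in CK, 5 higher by at least 2-fold in MTST than in ST, and 14 higher (of 22) and 5 lower (of 2) by at least 2-fold in MTST than in CK. Limma-voom gave 5 higher by at least 2-fold in MTST than in ST and 4 lower by at least 2-fold in MTST than in CK, and a pseudocount of 0.1 gave 4 of the latter. Other acyltransferase genes 1 and 2 changed sign in ST minus CK with median-of-ratios scaling (-0.121 and -0.00351). The cause of these changes was not tested beyond the smaller number of genes in the stricter filter.

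Leaving out 1 library at a time gave 64 to 71 genes higher and 5 to 6 lower in ST than in CK (48 to 57 and 4 to 5 by at least 2-fold), 5 to 8 higher and 42 to 50 lower in MTST than in ST (1 to 5 and 27 to 34), and 30 to 38 higher and 4 to 8 lower in MTST than in CK (18 to 23 and 2 to 4). Without ST replicate 2, 5 genes were higher by at least 2-fold in MTST than in ST, without MTST replicate 1 only 1 was, and without CK replicate 3, 4 were lower by at least 2-fold in MTST than in CK. Of 222 results for single genes, 191 kept their direction and call with median-of-ratios scaling, 22 lost and 7 gained a call, and between 206 and 215 kept both when a library was left out. With classes from KEGG maps, 5 of the 6 tested genes with the quinone map, which are 4 CoA ligases and 2 acyltransferases, were higher in ST than in CK, and 4 of 17 genes with the beta-glucosidase maps were higher in MTST than in CK. The shares of all genes were 52.8% and 29.7%.

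The replicate number did not pair the libraries, since the deviations of same-numbered libraries correlated at -0.152 to 0.0831 and not every library correlated best with its own number. With the replicate block, 70 genes were higher and 6 lower in ST than in CK, 7 and 50 in MTST against ST, and 33 and 6 in MTST against CK, and 218 of the 222 single-gene results kept their call. The block added the calls of phenylalanine ammonia-lyase gene 2 (adjusted p = 0.044) and beta-glucosidase gene 5 (adjusted p = 0.046) in ST against CK, and it ended those of cinnamate hydroxylase gene 2 in ST against CK (adjusted p = 0.059) and beta-glucosidase gene 1 in MTST against CK (adjusted p = 0.052). At 13048770 to 14468499 reads a library, 71 genes with reads stayed below the filter, and no call is given for them.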
